A study of Mus musculus with 6 samples.

Results

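Most genes described here encode subunits of the proteasome, its activators and inhibitor, or chaperones that build it, and 2 only share the prefix of the name. They were taken as the probe sets annotated with a single gene symbol that begins with Psma, Psmb, Psmc, Psmd, Psme, Psmf or Psmg, with the inducible subunits Psmb8 and Psmb9 left out. This rule used symbols and no measured value. It gave 46 genes with 83 probe sets, of 12393 genes and 22626 probe sets in all. Of the 46 genes, 25 had 1 probe set and 21 had several. A probe set shared by Psme2 and Psme2b carried more than one symbol and was left out, with levels of 12.31, 12.27 and 12.21 in WT and 12.29, 12.29 and 12.25 in HDAC11-/- Tregs on the log2 scale. The members lie on 16 chromosomes, with 9 of them on chromosome 11, so they are not one neighbourhood of the genome.

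RNA of regulatory T cells (Tregs), the Foxp3-expressing T cells that restrain immune responses, was measured on 6 Affymetrix Mouse430A arrays. The 3 wild type (WT) arrays came from C57BL6 mice. The 3 HDAC11-/- arrays came from fl-HDAC11/Foxp3cre mice, in which Cre made in Foxp3-expressing cells removes the floxed gene for histone deacetylase 11. Both groups were CD4+CD25+ Tregs separated with magnetic beads, with no treatment in the labels. The WT mice are not said to carry Cre, so effects of Cre and of the deletion cannot be told apart. The labels do not say whether each array is a separate mouse, give no age or sex for an array, and number the arrays 1 to 3 in each genotype. The p-values therefore measure the spread between these samples, which may be technical.

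The proteasome is the protease that degrades proteins tagged with ubiquitin. Its core particle is a barrel of stacked rings, with alpha subunits (Psma) on the outside that gate the entry and beta subunits (Psmb) on the inside, some of which cut the protein chain. The regulatory particle caps the barrel with a ring of ATPases (Psmc) that unfold and thread the substrate, and with non-ATPase subunits (Psmd) that bind and remove ubiquitin. Activators of the Psme family can cap the barrel in its place, Psmf1 is an inhibitor of the core, and Psmg chaperones help to build the alpha ring. In lymphocytes the proteasome also makes peptides for MHC class I, and when it is impaired the transcription factor Nfe2l1 (Nrf1) raises the subunit genes together through antioxidant response elements in their promoters.

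Because many members moved together, their promoters were read from RefSeq (GRCm38.p6), as the 250 bases before and 50 after each start in its table. Entries matched 38 of the 46 genes, with 41 promoters. The 6 sequences shown here each give the 150 bases before the start, 5′ to 3′ in the direction of the gene, in lower case with capitals for a motif. Psmb5 and Psmb6 encode catalytic subunits and show the core of the antioxidant response element, TGACNNNGC. Psmc1 and Psmd12, a base ATPase and a lid subunit, show the ETS motif CCGGAAGT on the opposite strand. Psme3, the activator with the largest difference, shows an E-box (CACGTG) and CCAAT on the opposite strand. Psme1, an activator that missed the test, holds none of the motifs in this stretch. Another that missed it by its brightest probe set, Psme4, holds the antioxidant response element core and the ETS motif in its window.
Psmb5 (chr14:54617996-54618145, minus strand): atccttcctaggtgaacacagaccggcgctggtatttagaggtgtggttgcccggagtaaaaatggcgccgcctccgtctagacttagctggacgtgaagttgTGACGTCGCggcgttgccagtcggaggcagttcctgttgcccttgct
Psmb6 (chr11:70525207-70525356, plus strand): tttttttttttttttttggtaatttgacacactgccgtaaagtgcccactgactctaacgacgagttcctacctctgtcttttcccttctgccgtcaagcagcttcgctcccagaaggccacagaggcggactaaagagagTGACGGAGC
Psmc1 (chr12:100110052-100110201, plus strand): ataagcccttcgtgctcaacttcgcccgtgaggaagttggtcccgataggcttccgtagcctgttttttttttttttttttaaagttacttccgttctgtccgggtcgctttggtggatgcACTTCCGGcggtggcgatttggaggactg
Psmd12 (chr11:107479378-107479527, plus strand): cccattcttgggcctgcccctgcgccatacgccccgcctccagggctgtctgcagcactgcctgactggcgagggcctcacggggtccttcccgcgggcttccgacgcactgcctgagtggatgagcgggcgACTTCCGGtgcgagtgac
Psme3 (chr11:101316063-101316212, plus strand): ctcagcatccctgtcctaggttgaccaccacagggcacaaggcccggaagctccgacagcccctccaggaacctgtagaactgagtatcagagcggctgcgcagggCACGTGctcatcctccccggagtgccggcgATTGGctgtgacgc
Psme1 (chr14:55578344-55578493, plus strand): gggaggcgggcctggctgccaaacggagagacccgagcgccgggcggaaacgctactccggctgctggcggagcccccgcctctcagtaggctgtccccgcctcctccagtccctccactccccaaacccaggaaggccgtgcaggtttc

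The antioxidant response element core lay 47 bases before the start in Psmb5 and 9 in Psmb6, the ETS motif 29 bases before it in Psmc1 and 18 in Psmd12, and the E-box 44 and CCAAT 14 bases before it in Psme3. The start read for Psmb6 lies inside the annotated span of the gene, which begins at base 70525324, and so does this motif. Over both strands of the full windows, TGACNNNGC was found in 14.6% of the 41 member promoters and 12.4% of all 32851 promoters in the table. The ETS motif was in 24.4% of member promoters, those of 9 genes (Psma6, Psmc1, Psmc2, Psmd12, Psmd13, Psmd6, Psme3, Psme4 and Psmg3), and in 3.89% of all. CCAAT, the NF-Y motif, was in 34.1% against 37.4%, the E-box CACGTG in 12.2% against 7.15%, and the CREB/ATF motif TGACGTCA in 0 of the member promoters against 1.79% of all. These shares describe letters in a window and were not tested, and member promoters with and without a motif were not compared for expression. TGACNNNGC and TGACGTCA both begin with TGAC but cannot match from the same base of a strand.

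Array signals are given as the log2 level per probe set that the authors deposited after RMA normalization, and a gene is represented by its brightest probe set over all arrays. A difference is HDAC11-/- minus WT on that scale. It was tested with limma, adjusted by Benjamini-Hochberg over all 22626 probe sets, and called when the adjusted p was under 0.05 and the difference at least 1.5-fold. Levels of different probe sets are not comparable as amounts, since each probe set binds with its own strength.

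Proteasome transcripts were slightly but broadly higher in HDAC11-/- Tregs. Of the 46 genes, 33 rose past the adjusted p and 1, Psmb3, fell, against 22.9% of all 12393 genes that rose and 23.2% that fell. The members' share that rose was thus 71.7%. Without the testis form Psma8, and without Psmc3ip and Psme3ip1, which are not subunits, 32 of 43 rose and 1 fell. The sign was positive for 44 of the 46. In 38 members every HDAC11-/- array lay above every WT array, against 28.2% of all genes, and in 1 every array lay below, against 29.6%. The differences were small: the median was 0.30, or 1.23-fold, beside -0.04 for all genes, and only Psmb7, Psmd7 and Psme3 reached 1.5-fold and were called higher. That is 3 of 46, while 3.46% of all genes were called higher, and 0 members were called lower against 3.72%. Most proteasome probe sets are bright, and among the 5400 genes with a mean level of at least 8 the share that rose was 37.7%, the share that fell 24.7% and the median 0.07, with 3.87% called higher and 4.2% called lower. Limma's SE for a member ran from 0.04 to 0.16 on the log2 scale, with a median of 0.05, so a difference of this size was several times its error.

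**Figure D1:**
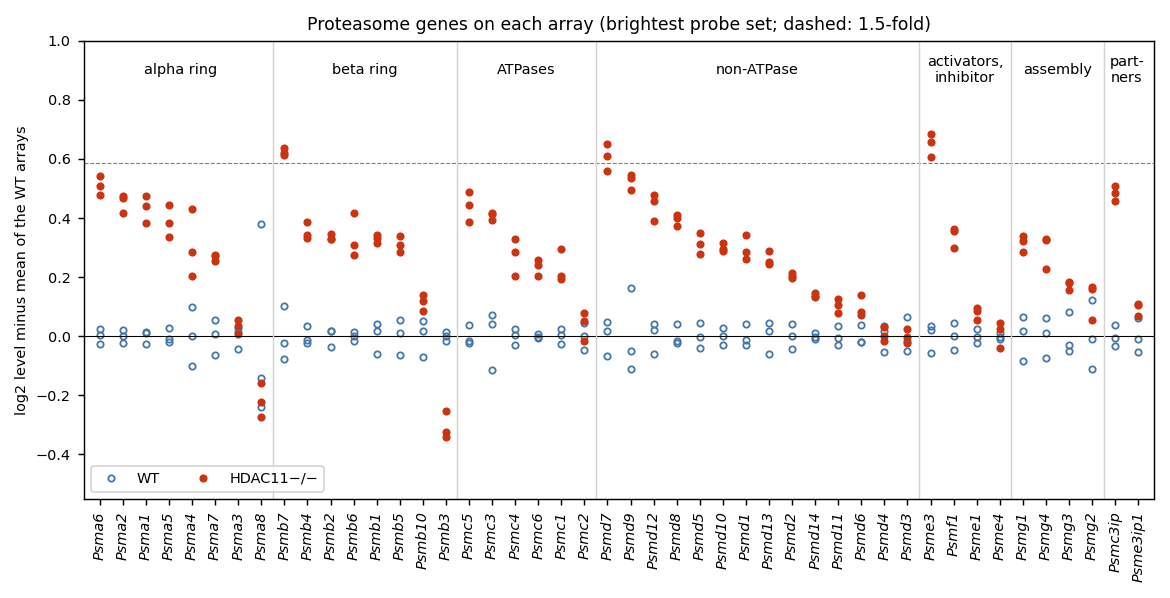
Each point is 1 array: the y axis gives the log2 level of the gene's brightest probe set minus the mean of the WT arrays, and the x axis the 46 genes by role. Open points are the 3 WT and filled points the 3 HDAC11-/- arrays, and the filled points lie above all open ones in 38 genes and below them in 1, Psmb3.

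Other scalings move the members and all genes alike. RMA sets the arrays to a common distribution, with array medians of 6.74 to 6.77 here. On a scale set by 9 measured reference genes, 4 of which themselves rose, the median of all genes became -0.20 and that of the members 0.14. Then 21 members rose, 4 fell and 0 were called higher, against 11.9%, 46.6% and 2.07% of all genes. On a scale set by the 3 cre control probe sets, added to the hybridisation mix, the medians were 0.44 and 0.78. On it 36 members were called higher, against 30.9% of all genes, and Psmb3 did not fall (0.18). These control probe sets had means of 14.27 in WT and 13.79 in HDAC11-/- Tregs. Only the HDAC11-/- mice are said to carry Cre, and whether this control is independent of genotype was not tested. The members' median lay 0.34 above the median of all genes on each scale, which follows from how a scaling works.

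Core and regulatory subunits were higher on average in HDAC11-/- Tregs, while of the activators only Psme3 rose by its brightest probe set. The 16 core genes (Psma and Psmb) had a median difference of 0.33, with 12 that rose, 1 that fell and 3 that missed the test. The 20 regulatory genes (Psmc and Psmd) had a median of 0.27, with 15 that rose and 5 that missed the test. These 20 include 3 base chaperones that leave the finished particle, Psmd5, Psmd9 and Psmd10, which all rose, with a median of 0.31. The lid subunits had a median of 0.20 and the other non-ATPase subunits of the base 0.21. Among the 4 genes of activators and inhibitor (Psme and Psmf1) the median was 0.21. The 2 that rose were the activator Psme3 (0.65) and the inhibitor Psmf1 (0.34), while Psme1 (0.08) and Psme4 (0.01) missed the test. Averaged over the genes of a class, the deviation from the WT mean was 0.32, 0.29 and 0.29 on the 3 HDAC11-/- arrays for the core without Psma8, which was no brighter than the bacterial controls, 0.28, 0.26 and 0.26 for the regulatory genes, and 0.27, 0.26 and 0.27 for activators and inhibitor. The WT arrays lay at 0.01, 0.02 and -0.03 for the core without Psma8, at -0.01, 0.01 and 0.00 for the regulatory genes, and at -0.02, 0.00 and 0.02 for activators and inhibitor. The means over the HDAC11-/- arrays were 0.30 ± 0.02 for the core, 0.27 ± 0.01 for the regulatory genes and 0.27 ± 0.01 for activators and inhibitor (SD, n = 3), and 0.27 ± 0.02 for the core with Psma8 included. Differences between classes were not tested, since genes are not replicates.

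**Figure D2:**
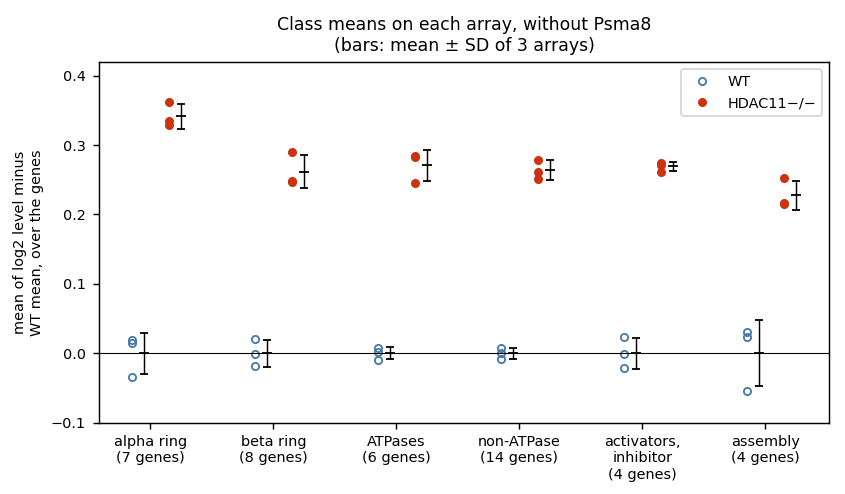
The y axis gives, for each array, the mean over the genes of a class of the log2 level minus the WT mean of the gene, and the x axis the 6 classes, with Psma8 left out of the alpha ring. Open points are WT and filled points HDAC11-/- arrays, with bars for mean ± SD of 3 arrays; the HDAC11-/- means lie between 0.23 and 0.34.

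In the alpha ring 6 of 8 genes rose, and 0 fell. Psma6 had the smallest adjusted p of the ring, with levels of 11.28, 11.31 and 11.33 in WT and 11.78, 11.81 and 11.85 in HDAC11-/- Tregs. The groups did not overlap, the means were 11.31 ± 0.03 and 11.81 ± 0.03 (SD, n = 3), and the difference of 0.51 ± 0.04 (SE) was 1.42-fold (limma adjusted p = 0.000259). Psma2 and Psma1 followed, at 0.45 and 0.43, then Psma5 at 0.39, Psma4 at 0.31 and Psma7 at 0.27. Psma4 missed the test without WT replicate 3 or HDAC11-/- replicate 1 or 2. Psma3, one of the brightest members with means of 12.23 and 12.27, missed the test (0.03, adjusted p = 0.578). Psma8 is the testis form of an alpha subunit, and its probe set was no brighter than the bacterial control probe sets in either genotype, so it gives no fold.

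In the beta ring 6 of 8 genes rose, among them all 3 catalytic subunits of the standard proteasome, Psmb5, Psmb6 and Psmb7. Psmb7, which carries the trypsin-like activity, had levels of 10.38, 10.26 and 10.20 in WT and 10.89, 10.90 and 10.92 in HDAC11-/- Tregs. The lowest HDAC11-/- array was above the highest WT array, and the difference of 0.62 ± 0.06 (SE) was 1.54-fold (limma adjusted p = 0.000333). Without WT replicate 3 it was 0.58, just short of 1.5-fold, and on the reference gene scale 0.46, both past the adjusted p. Psmb5, with the chymotrypsin-like activity, had 10.18, 10.30 and 10.25 in WT and 10.58, 10.53 and 10.55 in HDAC11-/- Tregs (0.31, adjusted p = 0.00292). Psmb6, with the caspase-like activity, had 10.36, 10.33 and 10.35 against 10.76, 10.62 and 10.65 (0.33, adjusted p = 0.00274). In both the groups did not overlap. Psmb10 replaces Psmb7 in the immunoproteasome, and its levels of 10.93, 11.06 and 11.02 against 11.14, 11.12 and 11.09 gave 0.11 and missed the test (adjusted p = 0.109). The difference between Psmb7 and Psmb10 was not tested.

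Psmb3, a structural beta subunit, was the only member whose brightest probe set fell. That probe set (1460198_a_at) had levels of 11.54, 11.55 and 11.57 in WT and 11.30, 11.23 and 11.21 in HDAC11-/- Tregs, a difference of -0.31 ± 0.05 (SE, limma adjusted p = 0.00222), or 1.24-fold lower, except on the cre scale, where it was 0.18. The other probe set of Psmb3 (1417052_at) went the other way, with 10.61, 10.55 and 10.63 against 10.92, 10.84 and 10.88 (0.29, adjusted p = 0.00357). Neither probe set overlapped between the groups, so these arrays give no single direction for Psmb3.

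Of the 6 ATPases of the regulatory base 5 rose and 0 fell. Psmc5 had levels of 10.05, 9.99 and 10.00 in WT and 10.50, 10.40 and 10.46 in HDAC11-/- Tregs, with no overlap and a difference of 0.44 ± 0.05 (SE), or 1.36-fold (limma adjusted p = 0.000647). Psmc3 was at 0.41, Psmc4 at 0.27, Psmc6 at 0.23 and Psmc1 at 0.23. The brightest probe set of Psmc2 missed the test (0.04, adjusted p = 0.556), while its other one rose (0.32, adjusted p = 0.00239). Psmc6 also had a pair of dimmer probe sets that passed 1.5-fold. One (1417770_s_at) had 8.46, 8.19 and 8.30 in WT against 8.90, 8.93 and 8.95, and the other (1417769_at) had 5.68, 5.84 and 6.06 against 6.42, 6.56 and 6.60. They were 1.53-fold and 1.59-fold higher, where the brightest of Psmc6, with 10.51, 10.51 and 10.52 against 10.76, 10.72 and 10.78, was 1.18-fold higher. All 3 probe sets of Psmc6 rose without overlap, by different amounts.

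Of the 14 non-ATPase genes 10 rose and 0 fell. Psmd7, a lid subunit that pairs with the deubiquitinase Psmd14, was called higher by its brightest probe set, while a dimmer one (1432820_at) fell by more. Its brightest had 8.30, 8.22 and 8.33 in WT against 8.94, 8.90 and 8.85 in HDAC11-/- Tregs. The difference was 0.61 ± 0.05 (SE), or 1.52-fold, with no overlap (limma adjusted p = 0.000261). It was 0.57 without WT replicate 2 and 0.45 on the reference gene scale, both short of 1.5-fold and past the adjusted p. The 8 lid genes had a median of 0.20, with 5 that rose and 3 (Psmd3, Psmd6 and Psmd11) that missed the test. Psmd12 and Psmd8 of the lid were at 0.44 and 0.39, and Psmd14, which removes ubiquitin chains as substrates enter, at 0.14 (adjusted p = 0.0313), a rise that missed the test whichever array was left out. Psmd3 was level between the genotypes (0.00, adjusted p = 0.998).

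The base chaperones Psmd5, Psmd9 and Psmd10, which guide the assembly of the ATPase ring and leave the finished particle, all rose, with a median of 0.31. Psmd9 had levels of 7.51, 7.72 and 7.45 against 8.10, 8.10 and 8.05, so its WT arrays spread more widely than its HDAC11-/- arrays and still lay below them. Of the base scaffolds and receptors, Psmd1 (0.30) and Psmd2 (0.21) rose. The ubiquitin receptor Psmd4 missed the test by its brightest probe set (0.01, adjusted p = 0.931).

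Among the activators the differences varied in size by the brightest probe set, and they were not tested against each other. Psme3, the activator of nuclear proteasomes, had the largest difference of all 46 genes: 8.47, 8.55 and 8.56 in WT against 9.21, 9.14 and 9.19 in HDAC11-/- Tregs. The means were 8.53 ± 0.05 and 9.18 ± 0.04 (SD, n = 3), with a difference of 0.65 ± 0.05 (SE), or 1.57-fold (limma adjusted p = 0.000152). On the reference gene scale it was 0.49, past the adjusted p and short of 1.5-fold. Another probe set of Psme3 (1418079_at), with 8.31, 8.26 and 8.45 against 8.97, 9.02 and 9.02, was 1.59-fold higher. Psme1, part of the interferon-induced activator that serves antigen processing, was nearly level: 12.31, 12.35 and 12.33 in WT against 12.41, 12.42 and 12.38 (0.08, adjusted p = 0.18). Its groups did not overlap, but the gap was too small against the spread to pass the test. Psme4 missed it by its brightest probe set (0.01, adjusted p = 0.874), while its other probe sets rose by 0.18 and 0.25. The inhibitor Psmf1 rose as well, from 8.60, 8.55 and 8.64 to 8.95, 8.89 and 8.96 (0.34, adjusted p = 0.00177).

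Of the 4 assembly chaperones Psmg1 to Psmg4, 3 rose. Psmg1 had 9.65, 9.50 and 9.61 in WT against 9.87, 9.91 and 9.93 in HDAC11-/- Tregs (0.32, limma adjusted p = 0.00386), with no overlap. Psmg4 was at 0.29 and Psmg3 at 0.17, though Psmg3 missed the test when any array but WT replicate 1 was left out. Psmg2 missed the test by its brightest probe set (0.13, adjusted p = 0.192) and rose by the other (0.55, adjusted p = 0.000286). A pair of genes bear the prefix without being subunits. Psmc3ip, a factor of homologous recombination named for binding Psmc3, rose from 6.91, 6.84 and 6.86 to 7.38, 7.35 and 7.33 (0.48, adjusted p = 0.000325). Psme3ip1, a partner of Psme3, missed the test (0.09, adjusted p = 0.162).

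The brighter members differed by less than the dimmer ones. Without Psma8, Pearson's r between the difference and the mean level was -0.35 over 45 genes, a description across genes that share the same arrays, and with it -0.02. The 13 members with a mean level of at least 11 had a median of 0.14, with 7 that rose and 1 that fell. Among all 831 genes that bright the median was 0.08, 38.6% rose and 163 genes fell. The 32 dimmer members, with Psma8 set aside, had a median of 0.31, and 26 rose, beside 22.9% of all genes at any level. All genes under a level of 11 were not counted apart, so the 26 have no share of equally dim genes beside them.

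The probe sets of one gene did not always go the same way. Of the 83 probe sets 53 rose, 10 fell and 20 missed the test, against 23.2% and 22.4% of all probe sets that rose and fell. Of these 83, 6 were called higher against 3.87% of all probe sets, and 4 were called lower against 5.03%. Counting a gene by any of its probe sets, 40 members rose, including 6 of the 12 that missed the test by their brightest one (Psmc2, Psmd4, Psmd6, Psmd11, Psme4 and Psmg2). The share of all genes that rose by any probe set was not counted, so this count gives no result about the members. By any probe set 4 members were called higher and 4 lower, against 5.31% and 6.66% of all genes. Of the 10 probe sets that fell, 4 were no brighter than the bacterial controls in either genotype (highest bacterial control mean 5.39 in WT and 5.14 in HDAC11-/-). All 7626 probe sets in that range had a median of -0.10, beside -0.03 for all probe sets.

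**Figure D3:**
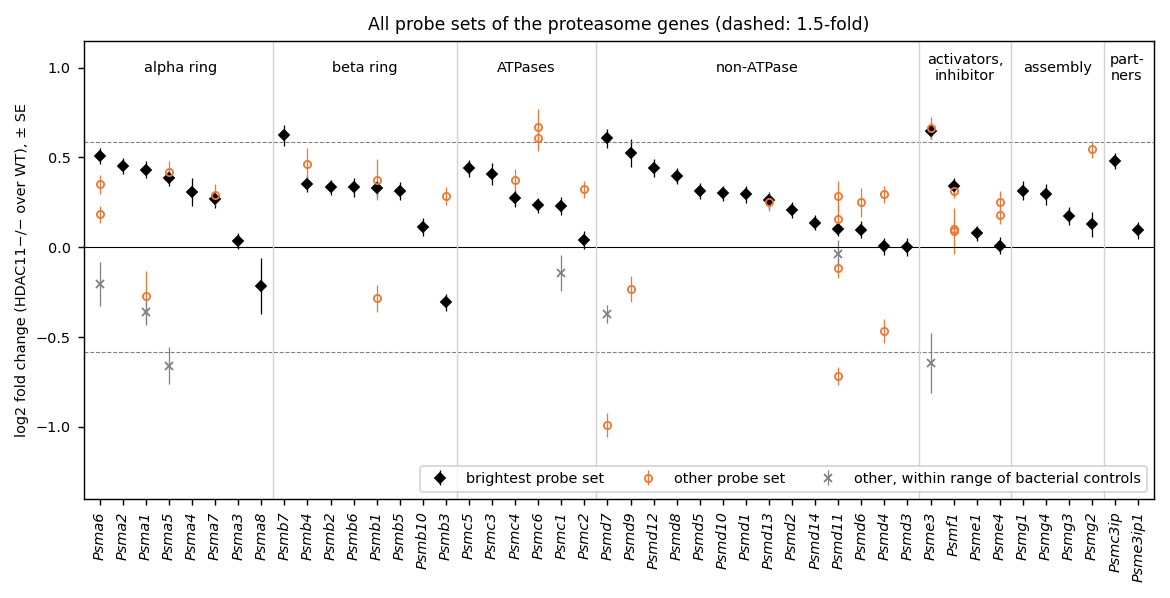
The y axis gives the log2 difference of each of the 83 probe sets with its SE from limma, and the x axis the 46 genes by role. Diamonds are the brightest probe set of a gene, open circles its other ones and crosses other ones no brighter than the bacterial controls; most points lie between 0 and 0.6, and the lowest is a second probe set of Psmd7 at -0.99.

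Apart from those dim probe sets, 6 genes had probe sets that passed the test in opposite directions: Psmb1, Psmb3, Psmd4, Psmd7, Psmd9 and Psmd11. Including them, 9 genes did of the 21 members with several probe sets, the others being Psma1, Psma5 and Psme3. Among all probe sets 23.2% rose and 22.4% fell. How many of all genes had probe sets in opposite directions was not counted, so these counts are not particular to the members. In Psmd7 the second probe set (1432820_at) fell by 0.99 ± 0.07 (SE, limma adjusted p = 0.000102), from 7.71, 7.91 and 7.91 to 6.84, 6.84 and 6.88, or 1.99-fold, while the brightest was called higher. The dimmest of Psmd7 (1454368_at) also passed the test downward but was no brighter than the bacterial controls. These arrays thus give no single direction for Psmd7. In Psmd11 the probe set 1456059_at fell by 0.72 ± 0.05 (SE, adjusted p = 0.000123), from 10.41, 10.35 and 10.33 to 9.69, 9.58 and 9.67, or 1.64-fold. The brightest of Psmd11 had 11.10, 11.06 and 11.04 against 11.15, 11.17 and 11.20 and missed the test (0.10, adjusted p = 0.0953), and a dim one (1456104_at) rose (0.29, adjusted p = 0.0326). That last rise missed the test without WT replicate 1 or 3 or HDAC11-/- replicate 1 or 3 (limma adjusted p of 0.0602 to 0.0864). The falls of 1432820_at and 1456059_at were larger than the median rise of the members, and in both the groups lay well apart.

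In Psmd4 the brightest probe set had 11.35, 11.28 and 11.37 against 11.36, 11.33 and 11.32, with overlap. The second (1425859_a_at) rose from 9.77, 9.74 and 9.68 to 10.04, 10.01 and 10.02 (adjusted p = 0.00264). Its dimmest probe set (1451725_a_at) fell from 7.72, 7.88 and 7.81 to 7.24, 7.34 and 7.43 (adjusted p = 0.00185), which on the cre scale became 0.014. In Psmb1 the brightest rose from 11.34, 11.36 and 11.26 to 11.65, 11.66 and 11.63 (0.33), and a dim one (1420053_at) fell from 6.08, 5.95 and 5.98 to 5.78, 5.57 and 5.80 (-0.28), or 0.20 on the cre scale. Without WT replicate 1 that fall missed the test (limma adjusted p = 0.0599). In Psmd9 a dim one (1423387_at) fell from 5.87, 5.63 and 5.77 to 5.45, 5.54 and 5.59 (-0.23), or 0.25 on the cre scale. It missed the test without any array except WT replicate 2 (limma adjusted p of 0.0590 to 0.118). Which transcript or part of the gene each probe set reads was not determined here, and the part that transcript forms have in these opposite directions was not tested.

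**Figure D4:**
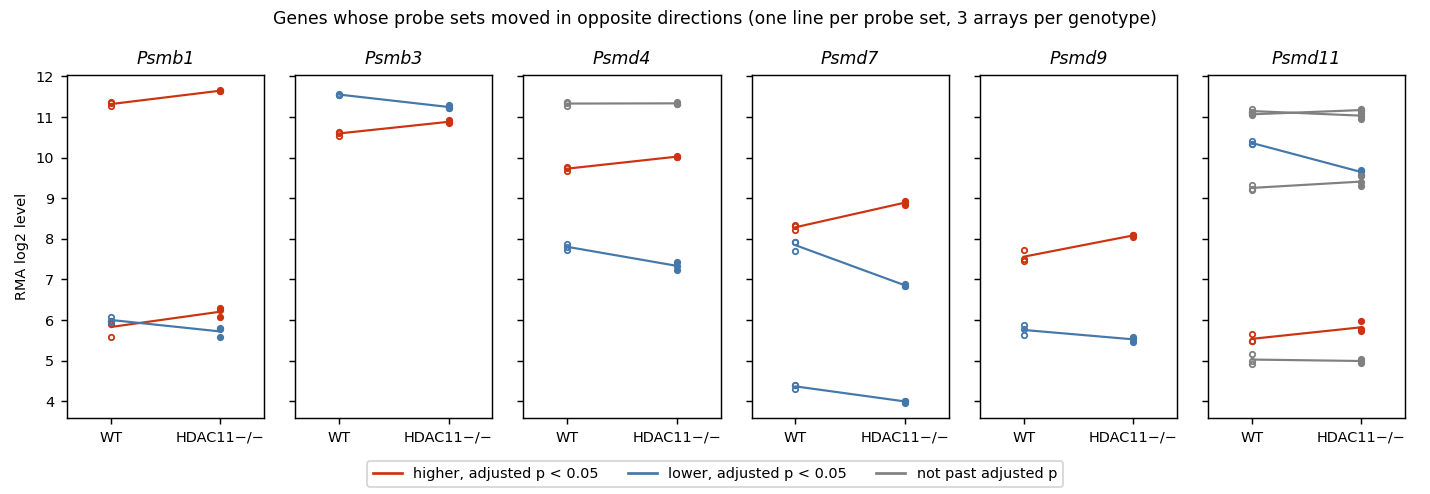
The y axis gives the RMA log2 level and each panel 1 of the 6 genes with probe sets above the bacterial controls that passed the test in opposite directions. Each line joins the means of 1 probe set in WT (open points) and HDAC11-/- (filled points, 3 arrays each). Psmb3 and Psmd7 each have a rising and a falling line, and Psmd7 has another falling line for a probe set no brighter than the bacterial controls.

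Genes around the proteasome were read from a list of partners, of the transcription route to the subunit genes, and of ubiquitin shuttles and the segregase Vcp. Of its 27 measured genes 12 rose, 2 fell and 13 missed the test, with a median of 0.13. Of these 27, 2 were called higher and 1 lower. All 27 had a mean level of at least 8. Among all genes that bright 37.7% rose and 24.7% fell, with 3.87% called higher and 4.2% lower. The counts that rose or were called lie near those shares, while the count that fell lies below its share, which was not tested. The 11 measured partners of the regulatory and core particles had a median of 0.24, with 7 that rose and 0 that fell. Uchl5, a deubiquitinase of the base, had 8.95, 9.09 and 9.03 in WT against 9.70, 9.72 and 9.68 in HDAC11-/- Tregs, a difference of 0.67 ± 0.05 (SE), or 1.60-fold (limma adjusted p = 0.000175). Pomp, the chaperone that matures the beta ring, was at 0.30 and Akirin2, which brings proteasomes into the nucleus, at 0.23, and both rose.

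In the transcription route 0 of 6 measured genes rose and 2 fell, with a median of -0.06. With 22.9% of all genes that rose and 23.2% that fell, so few genes give no result about the route, and Ngly1 (0.13) and Hcfc1 (0.10) had positive values that missed the test. Nfe2l1 had 9.33, 9.26 and 9.24 in WT against 9.14, 9.21 and 9.14 in HDAC11-/- Tregs, which did not overlap but missed the test (-0.11, adjusted p = 0.102), and Nfe2l2 was at -0.01 (adjusted p = 0.924). Transcript levels of these factors say nothing of their processing or binding. Ogt, the enzyme that adds O-GlcNAc to nuclear proteins, fell by 1.18 ± 0.04 (SE, limma adjusted p = 7.32e-06), from 12.01, 12.03 and 12.05 to 10.84, 10.85 and 10.85, or 2.27-fold. Its groups were far apart. Syvn1, the ubiquitin ligase of the endoplasmic reticulum, fell from 8.72, 8.74 and 8.76 to 8.52, 8.52 and 8.53 (-0.21, adjusted p = 0.00601).

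Among 10 measured ubiquitin shuttles and segregase genes 5 rose and 0 fell, with a median of 0.13. Ubqln2, a shuttle that carries ubiquitinated proteins to the proteasome, rose from 9.87, 9.98 and 9.67 to 10.40, 10.46 and 10.44 (0.59 ± 0.08 SE, 1.51-fold, limma adjusted p = 0.00156). The shuttle Rad23b was at 0.53 and the Vcp cofactors Nploc4 and Faf1 at 0.46 and 0.40. Vcp itself missed the test by its brightest probe set (0.09, adjusted p = 0.243), and a dimmer one was called lower (-1.42). Dimmer probe sets were called higher for Faf1 (0.60, 1.51-fold) and for the partner Usp14 (0.59, 1.51-fold), a deubiquitinase whose brightest one missed the test (0.13, adjusted p = 0.393).

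**Figure D5:**
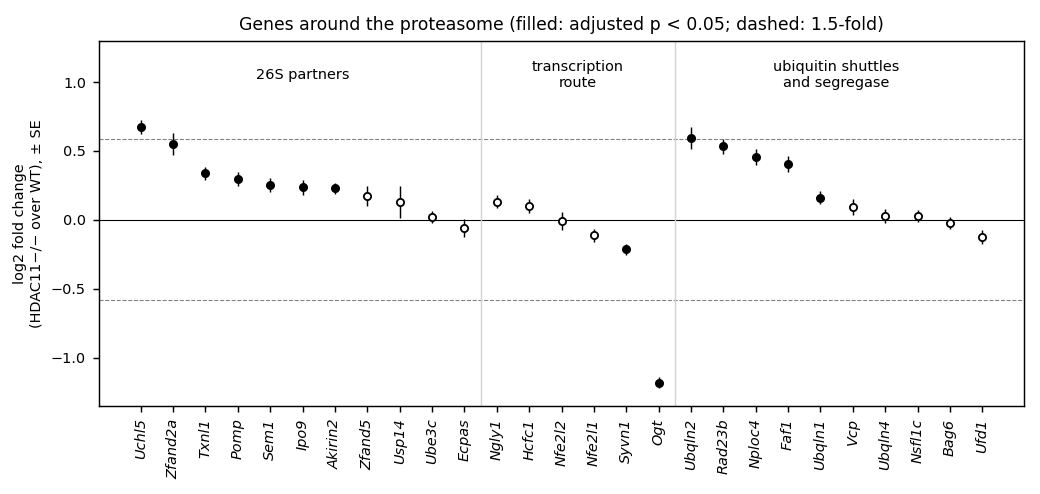
The y axis gives the log2 difference with its SE from limma for the brightest probe set of 27 genes around the proteasome, and the x axis the genes in 3 parts. Filled points passed the adjusted p; 12 lie above 0 and 2 below, with Ogt lowest at -1.18.

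The samples also differed in other ways. All 9 measured genes of cycling cells were called higher in HDAC11-/- Tregs, with a median of 1.93 and a summed linear signal of 6086 to 6301 against 1586 to 1701 in WT, and their part in the proteasome differences was not tested. Of 7 measured B cell markers 4 were called lower, with sums of 746 to 770 against 1168 to 1229. Sums were 1860 to 1924 against 1748 to 1836 for 6 dendritic cell markers (3 fell, with 1 of them called lower, and bright Cst3 rose). They were 1425 to 1548 against 1498 to 1567 for 6 CD8 T and NK cell markers (3 fell, with 1 of them called lower, and Cd8b1 rose). For 7 monocyte and macrophage markers they were 236 to 278 against 220 to 228. Of these 7, 2 were called higher, C1qa and C1qb. Another count, 4 that include C1qb, were no brighter than the bacterial controls in either genotype, so C1qb gives no fold. C1qa was no brighter than them in WT. Over all genes 3.46% were called higher and 3.72% lower. The 8 Treg markers summed to 23783 to 24396 against 22403 to 22888, with none called. Of them Ctla4 rose (0.50), Cd4 (-0.32) and Ikzf2 (-0.35) fell, and 5 missed the test. The probe set of Foxp3, the defining marker, was no brighter than the bacterial controls in either genotype. In bulk samples of this kind fewer cells of a type and less RNA per cell cannot be told apart, nor can more RNA in each cell and more cells that make it. Hdac11 had 6.31, 6.36 and 6.53 in WT and 6.36, 6.28 and 6.22 in HDAC11-/- Tregs (-0.12, adjusted p = 0.222). Where its probe set lies relative to the deleted part was not given in the sources used here. Thus it checks nothing about the labels. Correlations over all probe sets were at least 0.997 within WT, at least 0.998 within HDAC11-/- and 0.985 to 0.988 between them.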

How the data were processed

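RNA of 3 WT and 3 HDAC11-/- Treg arrays was analysed. The authors normalized the arrays by RMA in MAYDAY 2.12, per the labels and methods, and deposited the resulting log2 values, with 1 per probe set on each array. The probe definitions' version was not given in the sources used here. Control probe sets (45) were dropped before testing, and 22626 others were named by platform annotation (20380 with 1 symbol). Limma 3.58.1 in R 4.3.3 was run with genotype as the only term. The methods' tool, SAM, was written from its definition with 20 labelings. A probe set whose arrays of a genotype all lay at or below the highest of 27 bacterial controls on the same array has no fold there, since no detection calls were used. The number of arrays limits precision.

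The members and lists were chosen with earlier results of these data known. Genes named in full are members with a called probe set, the smallest adjusted p of each class in each direction, and members with probe sets in opposite directions. Of the surrounding list, those called and the smallest adjusted p in each direction within each part are named; others stand as examples, chosen after their values were seen. The alternatives were other scalings, probe set rules, filters, fold thresholds, SAM, a replicate block and leaving out each array. On simulated data for this comparison with 22626 probe sets, the fit found 61 of 100 probe sets changed 1.5-fold, 90 of 100 changed 2-fold and 3 of 22426 unchanged ones. Far fewer probe sets were changed there than passed the adjusted p in the data (5254 higher, 5070 lower). The adjustment therefore works differently there, and these rates need not hold for the data. Motifs were searched by letters in RefSeq promoters.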

Additional observations from a re-analysis of the deposited data

How the results depend on the processing

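Of the 34 members past the adjusted p, 21 stayed past it under every setting run other than the mean over a gene's probe sets and leaving out probe sets with a suffix letter in their names. Psmd14 lost it in 9 settings, Psmg3 in 8, Psma4 in 4 and Psmd2 in 2. On the reference gene scale 0 members were called higher, 21 rose and 4 fell, the medians were 0.14 (all), 0.17 (core), 0.11 (regulatory) and 0.050 (activators and inhibitor), 467 and 2052 of all probe sets were called higher and lower, 8 surrounding genes fell, and the brightest probe set of Psmd4 turned to -0.15. On the scale of the bacterial controls the medians were 0.32 (all), 0.29 (regulatory) and 0.23 (activators and inhibitor). On the cre scale 36 members were called higher, 0 fell, and the medians were 0.78, 0.81, 0.75 and 0.69. On it 7310 and 331 probe sets were called, and 26 surrounding genes rose and 1 fell. Signs turned there in probe sets of Psmb1 (0.20), Psmb3 (0.18), Psmd4 (0.014), Psmd7 (1454368_at, 0.11), Psmd9 (0.25) and Psmd11 (1431013_at, 0.45, and 1437080_s_at, 0.37). Of these, 1454368_at and 1431013_at were no brighter than the bacterial controls and give no fold. The larger falls of 1432820_at in Psmd7 and 1456059_at in Psmd11 kept their sign. With only probe sets that carry no suffix letter (a, s or x) in their names 1 member, Psma5, was called lower and 2 fell (Psma5 and Psmb1), with medians of 0.31 (regulatory) and 0.26 (activators and inhibitor). The Psma5 probe set then used was no brighter than the bacterial controls and gives no fold. With the mean over a gene's probe sets 1 was called higher, with medians of 0.22, 0.24, 0.23 and 0.18. With no fold threshold 33 and 1 members and 5254 and 5070 probe sets were called, and with a 2-fold threshold 0 and 0 members, 253 and 393 probe sets. Counting any probe set, 4 members were called lower and 9 fell, and among those above the bacterial controls (chosen after seeing the data) 2 and 6. The share of all genes that fell by any probe set was not counted. SAM gave 1 surrounding gene that fell. Leaving out 1 array gave 2 to 3 members called higher, 0 to 0 called lower, 30 to 32 that rose, 1 to 1 that fell, medians of 0.28 to 0.30 (all), 0.31 to 0.34 (core), 0.25 to 0.28 (regulatory) and 0.20 to 0.22 (activators and inhibitor), and 865 to 933 and 1098 to 1177 probe sets called. Deviations from the genotype means correlated at 0.23, -0.02 and 0.16 between same-numbered arrays. Between differently numbered arrays they correlated at -0.21 to 0.06. With 3 arrays per genotype these values cannot decide whether the numbers pair the samples. With the replicate number as a block 31 members rose, 1 fell, 3 were called higher and 0 lower. The brightest probe set on the WT arrays alone, also chosen after seeing the data, gave 33 that rose, 1 that fell and 3 called higher, and the core without Psma8, chosen likewise, kept a median of 0.33. The causes of these shifts were not tested.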
